A study of Penaeus monodon with 38 samples.

Results

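Wild ovary was compared with wild cephalothorax of the black tiger shrimp Penaeus monodon on single-colour oligonucleotide microarrays. All 12 wild ovary arrays and all 6 wild cephalothorax arrays of the series were taken, which is 18 of its 38 arrays, and each array measured 2240 probes. The animals were wild-caught adult females held in hatchery tanks and were either sampled before eyestalk ablation or after unilateral ablation, the removal of 1 eyestalk that brings on ovarian maturation. Stages were before ablation, 2 h and 24 h after it, and later, by oocyte histology, vitellogenic, round cortical rod and elongated cortical rod. Females of the first 3 stages count as previtellogenic here and those of the last 3 as vitellogenic. Ovary had 2 arrays per stage, hybridised with pools of 4 and of 5 females, and cephalothorax had 1 array per stage. RNA came from small pieces of ovarian lobe and of cephalothorax. The sources used here do not say which organs those cephalothorax pieces held, or how many females one array represents. The p-values therefore measure the spread between pools and stages, not between single animals.

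As background, the cephalothorax of a penaeid shrimp encloses the hepatopancreas, which secretes digestive enzymes and stores lipid, together with muscle, heart, blood-forming tissue and the forward lobes of the ovary. Oocytes build yolk from vitellogenin, a large lipoprotein that in penaeids is made in both the hepatopancreas and the ovary. Late oocytes also store extracellular proteins in cortical rods at their periphery, among them thrombospondin and ovarian peritrophins, and release them as a jelly layer around the spawned egg.

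The sequences of 7 probes that the text describes in full are shown, 5′ to 3′, as the files give them. Positions are base positions in the probe's own target sequence. No genome was used, so the probes have no chromosomal place here. The first 3 are cortical rod genes, the fourth is the yolk precursor, the fifth is a muscle gene, the sixth is a protease, and the last is an unnamed clone of a hepatopancreas library.
Thrombospondin 1018-1051: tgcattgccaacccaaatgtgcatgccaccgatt
Ovarian peritrophin 1 484-517: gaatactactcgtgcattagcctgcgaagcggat
Ovarian peritrophin 2 484-518: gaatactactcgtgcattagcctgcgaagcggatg
Vitellogenin 6949-6983: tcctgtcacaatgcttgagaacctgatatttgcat
Myosin alkali light chain 61-95: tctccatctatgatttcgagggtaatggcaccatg
Cathepsin L 566-599: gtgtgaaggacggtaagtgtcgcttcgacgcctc
HPA-N-S01-0577-LF 394-428: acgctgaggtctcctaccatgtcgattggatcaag
The 34 bases of the peritrophin 1 probe lie inside the peritrophin 2 probe, so these 2 probes cannot tell the transcripts apart. Over the array, 106 probes shared a run of at least 30 bases with a probe of another target. Among them 7 of the 12 cortical rod probes shared such a run with 10 probes of unnamed ovarian clones, which are therefore not separate evidence.

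The raw median intensity ran from 158 to 344 over the ovary arrays and from 124 to 384 over the cephalothorax arrays, and the difference in means did not pass the test (two-sided exact permutation p = 0.325, adjusted p = 0.325 over 2 tests). A non-specific level was set on each array as the 90th percentile of 24 probes derived from vertebrate sequences. The share of probes above it was 34.2% to 48.8% on ovary arrays and 43.3% to 50.4% on cephalothorax arrays (exact permutation p = 0.0631, adjusted p = 0.126). Of these 24 probes 8 were themselves called between the tissues. In ovary 7 were higher (29.2%, against 32.4% over all probes) and 1 lower (4.17%, against 23.8%). Only 1 was called at 2-fold or more. The 12 ovary arrays resembled each other, with Pearson correlations across probes of 0.906 to 0.992. The cephalothorax arrays formed sets by phase. They correlated at 0.917 to 0.976 within the previtellogenic phase, at 0.943 to 0.972 within the vitellogenic phase and at 0.783 to 0.875 between phases. Ovary correlated with previtellogenic cephalothorax at 0.519 to 0.645 and with vitellogenic cephalothorax at 0.306 to 0.433. The main counts and the members described in most detail are therefore also given by phase. Both cephalothorax slides held arrays of both phases, with 4 arrays on one slide and 2 on the other. No slide held both tissues. By their scan file names all ovary arrays belong to 1 series and all cephalothorax arrays to another, so tissue cannot be told apart from slide or scan file series among the wild arrays. Within wild eyestalk, 495 of 2240 probes were called between 8 arrays of the first series and 4 of the second, which also differ in stage and slide. The median absolute log2 difference was 0.28 there, against 0.48 for ovary minus cephalothorax.

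Ovary and cephalothorax differed at 1259 of 2240 probes, or 56.2% (limma, Benjamini-Hochberg adjusted p under 0.05). Ovary was higher at 726 probes, 32.4% of all, and lower at 533, 23.8% of all. With a difference of at least 2-fold, 349 probes were higher (15.6%) and 346 lower (15.4%). On 390 probes (17.4%) every ovary array lay above every cephalothorax array, and on 311 probes (13.9%) every ovary array lay below. The median log2 difference over all probes was 0.10. Of the 1259 called probes 211 were dim (below the non-specific level) on all 18 arrays, so for them a call says only that dim signals differed. In the previtellogenic phase 660 probes were higher in ovary (29.5%) and 397 lower (17.7%), and in the vitellogenic phase 524 were higher (23.4%) and 464 lower (20.7%). The same sign was called in both phases for 476 probes higher and 326 lower in ovary. In bulk tissue, fewer cells of a type and less RNA per cell cannot be told apart. With the 4 captive ovary arrays, whose scan file names belong to the series of the cephalothorax arrays, 867 probes were called against cephalothorax, 526 of them higher.

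The source of a target went with the direction of its difference. Of 345 probes designed on ovarian EST clones, 237 (68.7%) were higher in ovary and 24 lower, with a median log2 difference of 1.32. Of 351 probes from hepatopancreas EST clones, 49 were higher and 193 lower, with a median of -0.71. Eyestalk EST clones had 19 of 130 probes higher (14.6%) and 38 lower (29.2%), against 32.4% and 23.8% over all probes. Clones whose names carry the tag SMART had 302 of 1014 probes higher and 199 lower, near the shares over all probes, and contigs had 59 of 209 higher and 55 lower. Sequences taken from public databases had 56 of 185 probes higher and 23 lower. On 850 targets with at least 2 probes, all probes were called higher for 178 targets and all lower for 135, while 40 targets had probes called in both directions. Median GC content was 45.7% in probes at least 2-fold higher, 48.6% in those at least 2-fold lower and 45.7% over all probes.

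**Figure D1:**
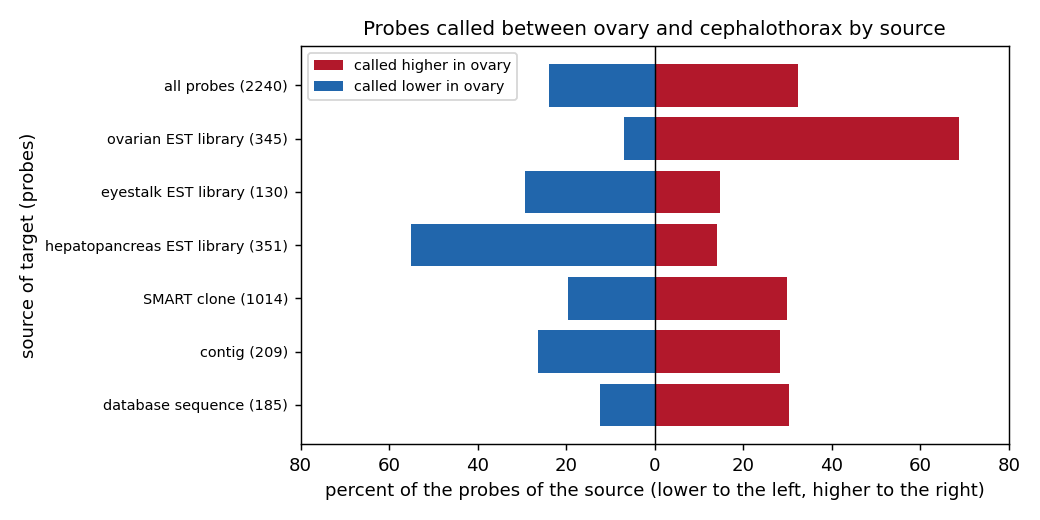
Percent of the probes of each target source that were called higher (right) or lower (left) in ovary than in cephalothorax, with the number of probes in brackets. Ovarian clones extended to 68.7% higher, and hepatopancreas clones leaned to the left with 193 of 351 probes lower.

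Cortical rod genes were the named genes with the largest excess in ovary. All 12 probes of thrombospondin, ovarian peritrophin 1 and ovarian peritrophin 2 were higher, with a median log2 difference of 3.62, against 0.10 over all probes. Over all probes 32.4% were called higher. On 10 of the 12 the groups did not overlap, while on 17.4% of all probes every ovary array lay above every cephalothorax array. On each of the 12 ovary arrays the median level of these probes lay between 12.82 and 13.27 (log2 normalised intensity). On the previtellogenic cephalothorax arrays it lay between 9.85 and 11.49, and on the vitellogenic ones between 7.90 and 8.65. The difference was called on all 12 probes in both phases, with a median of 2.45 in the previtellogenic and 4.66 in the vitellogenic phase. The list also matched a serine protease of the silkworm ovary, whose 2 probes were not called by limma (0 at an unadjusted p under 0.05 and 0 by a plain t-test per probe), with differences of -0.21 and 0.05.

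Thrombospondin, an extracellular matrix glycoprotein, was measured by 5 probes. At probe 1018-1051 the ovary arrays ran from 13.81 through a median of 14.08 to 15.10. The cephalothorax arrays read 11.76 before ablation, 12.03 at 2 h and 13.40 at 24 h, and then 9.62, 8.53 and 8.19 at the vitellogenic, round rod and elongated rod stages. Every ovary array was above every cephalothorax array, and within cephalothorax all 3 previtellogenic arrays were above all 3 vitellogenic ones. The log2 difference was 3.65 ± 0.46 (SE, 12 against 6 arrays, adjusted p = 5.1e-08). It was 1.82 ± 0.31 in the previtellogenic phase (adjusted p = 1.97e-05) and 5.47 ± 0.31 in the vitellogenic phase (adjusted p = 1.25e-14), or 3.54-fold and 44.5-fold. The other 4 probes differed by 3.40 to 3.86 over all arrays. All 5 had a larger difference in the vitellogenic phase by the interaction test, by 1.88 to 3.65 on the log2 scale.

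Ovarian peritrophins are chitin-binding proteins of the cortical rods. Ovarian peritrophin 1 at probe 8-41 ran from 12.18 through 12.86 to 13.36 in ovary. In cephalothorax it read 9.68, 9.48 and 8.57 on the previtellogenic arrays and 8.18, 7.16 and 7.82 on the vitellogenic ones. The groups were far apart on every array, and the log2 difference was 4.34 ± 0.31 (SE, adjusted p = 1.9e-13). The probe 484-517, printed above, ran from 13.44 through 13.67 to 14.26 in ovary. Its cephalothorax values were 11.30, 11.65 and 13.68 and then 10.50, 8.70 and 9.02, so the array at 24 h fell inside the ovary range and the groups overlapped. All 4 peritrophin 1 probes were higher, by 2.95 to 4.34, and all 4 had a larger difference in the vitellogenic phase, by 1.87 to 3.12. Of these, 664-697 reached the scanner ceiling on 2 ovary arrays, so its ovary level is a lower limit there.

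Ovarian peritrophin 2 was higher at its 3 probes, by 2.74 to 4.21. At probe 46-80 the ovary ran from 10.20 through 11.60 to 12.66, and cephalothorax read 7.99, 8.59 and 7.37 and then 7.10, 6.49 and 6.91. No cephalothorax array reached the lowest ovary array. The vitellogenic cephalothorax arrays were not above the non-specific level at this probe, so the vitellogenic difference is given as at least 18.3-fold. Here and below, "at least" marks a fold against the higher, on each dim array, of that array's non-specific level and the probe's own value. At probe 484-518, which shares its bases with the peritrophin 1 probe, the phase differences were 0.88 ± 0.35 (SE, adjusted p = 0.0382) and 4.59 ± 0.35 (adjusted p = 4.25e-12). Only this one of the 3 peritrophin 2 probes had a called interaction, of 3.71 ± 0.49 (adjusted p = 3.22e-06). The interactions of the other 2 were 1.28 ± 0.56 (adjusted p = 0.184) and 0.68 ± 0.48 (adjusted p = 0.538).

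**Figure D2:**
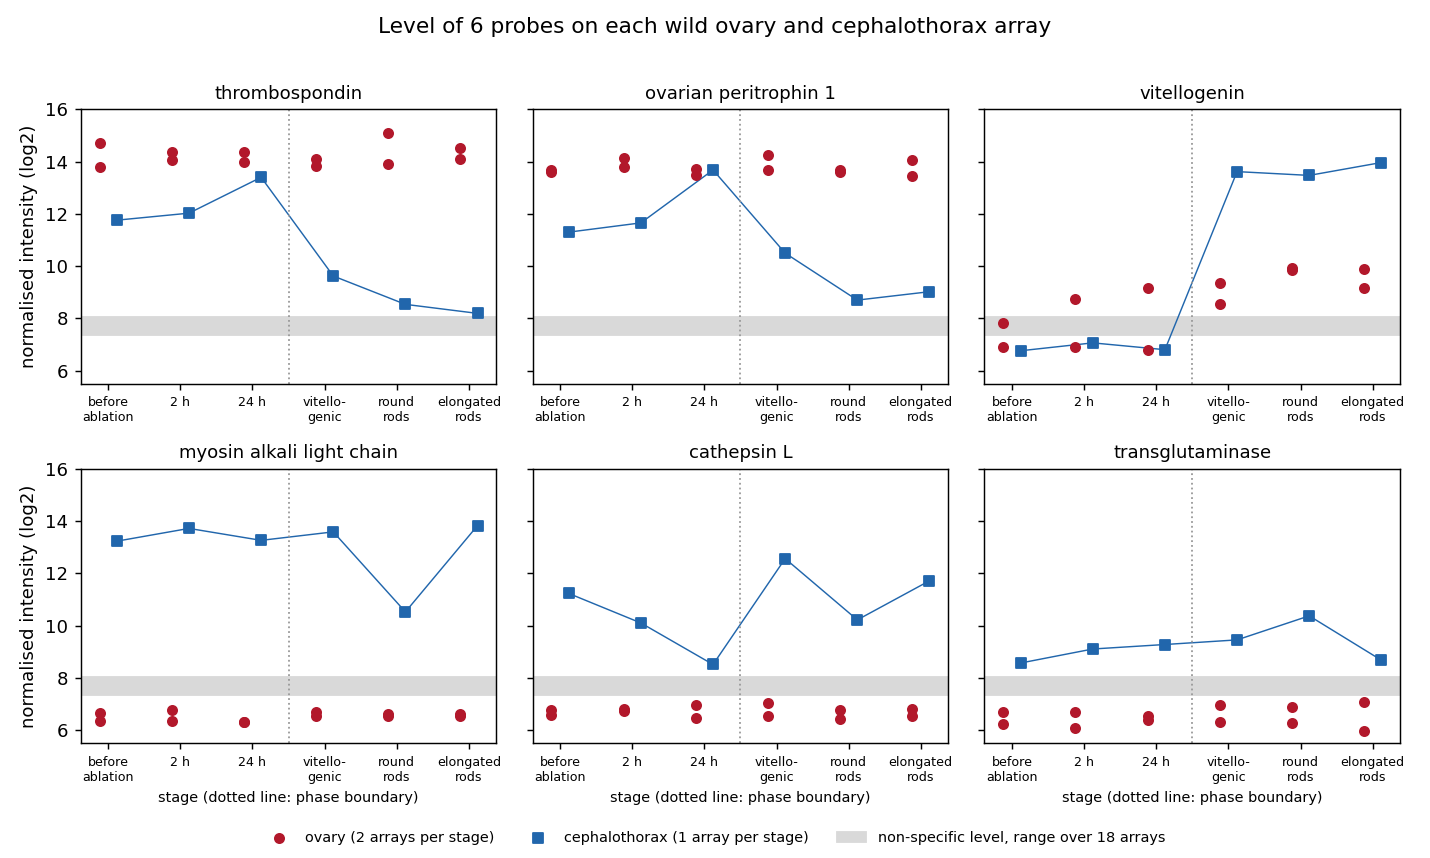
Level (log2 normalised intensity) of 6 probes on each array by stage: thrombospondin 1018-1051, ovarian peritrophin 1 484-517, vitellogenin 6949-6983, myosin alkali light chain 61-95, cathepsin L 566-599 and haemocyte transglutaminase 337-371. Circles are ovary pools, squares joined by a line are cephalothorax arrays, and the grey band is the range of the non-specific level. In cephalothorax thrombospondin read 13.40 at 24 h and 8.19 with elongated rods, while vitellogenin read 6.80 and 13.96.

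Vitellogenin ran the other way between the phases. Over all arrays 0 of its 5 probes were called by limma at adjusted p under 0.05, with log2 differences of -1.69 to -0.86, and 0 had an unadjusted p under 0.05 or were called by a plain t-test per probe. By phase, 2 of 5 probes were higher in ovary in the previtellogenic phase and all 5 were lower in the vitellogenic phase. At probe 6949-6983 the 6 previtellogenic ovary arrays ran from 6.79 to 9.16 and the 6 vitellogenic ones from 8.55 to 9.91. Of the previtellogenic ovary arrays, those labelled replicate 1 read 6.89, 6.91 and 6.79, all below the non-specific level. Those labelled replicate 2 read 7.83, 8.75 and 9.16, all above it. Cephalothorax read 6.76, 7.06 and 6.80 before ablation, at 2 h and at 24 h, and none of these was above the non-specific level. It then read 13.62, 13.47 and 13.96 at the vitellogenic, round rod and elongated rod stages. Each vitellogenic cephalothorax array was thus higher than all 12 ovary arrays, and each previtellogenic one was at or near the lowest ovary array.

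The ovary difference at 6949-6983 was 0.85 ± 0.37 (SE, adjusted p = 0.0641) in the previtellogenic phase and -4.23 ± 0.37 (adjusted p = 1.01e-10), or 18.8-fold lower, in the vitellogenic phase. The difference between phases was -5.08 ± 0.53 (adjusted p = 1.04e-07). All 5 probes had a negative interaction, of -5.08 to -2.26, and the smallest was at 7311-7345. Between the phases, 4 of 5 probes rose within ovary, for example 7005-7039 by 2.61 (adjusted p = 0.000805). Within cephalothorax all 5 rose, 7005-7039 by 7.60 (adjusted p = 4.9e-11). Probes 7005-7039 and 7245-7279 were called in both phases with opposite signs. In a fit of the previtellogenic stages alone the call of 7245-7279 was lost (adjusted p = 0.0726). The call over all arrays rests on the balance of phases. Without any 1 of the 3 previtellogenic cephalothorax arrays, 6949-6983 was called lower in ovary, with differences of -2.41 to -2.35, and so was 7311-7345, at -1.17 to -1.14. Probe 7519-7553 was called without 1 of them, at -2.08.

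An unnamed clone had levels ordered like those of vitellogenin. Plate-C-C11-5-SMART 52-87 (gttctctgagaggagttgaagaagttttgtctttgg) is shown because it was 1 of 5 probes called with opposite signs in the phases, and it was chosen after its values were seen. In ovary it ran from 7.50 through 8.99 to 9.82. Cephalothorax read 7.19, 7.30 and 7.06 and then 12.25, 14.46 and 12.25, with the round rod array highest. Its interaction was -4.55 ± 0.48 (SE, adjusted p = 1.04e-07). The other 2 probes with opposite signs were HPA-N-S01-0214-LF 316-352, with 0.62 and -0.48, and D-B3-5-SMART 11-44, with 0.27 and -0.51. The differences at other yolk and lipid targets were small. Of 3 probes each for phospholipase C and for a Drosophila vitellogenin receptor sequence, 1 each was higher in ovary, by 0.26 and 0.32, and both were dim (below the non-specific level) on all 18 arrays.

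The tissue difference itself differed between phases at 269 probes by the interaction test (limma, adjusted p under 0.05). On 169 probes (7.54%) ovary gained relative to cephalothorax from the previtellogenic to the vitellogenic phase, and on 100 (4.46%) it lost. The split depended on the scaling, with 113 gains and 107 losses by cyclic loess. It was 160 and 169 when the 18 arrays were both normalised and fitted alone. Of the 269 probes the change between phases was called within cephalothorax for 264 and within ovary for 6. Its median size was 2.05 in cephalothorax and 0.11 in ovary (log2). None of the 24 vertebrate-derived probes was among them. By source, there were 96 gains and 0 losses among 345 ovarian clone probes, and 7 gains and 46 losses among 351 hepatopancreas clone probes.

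**Figure D3:**
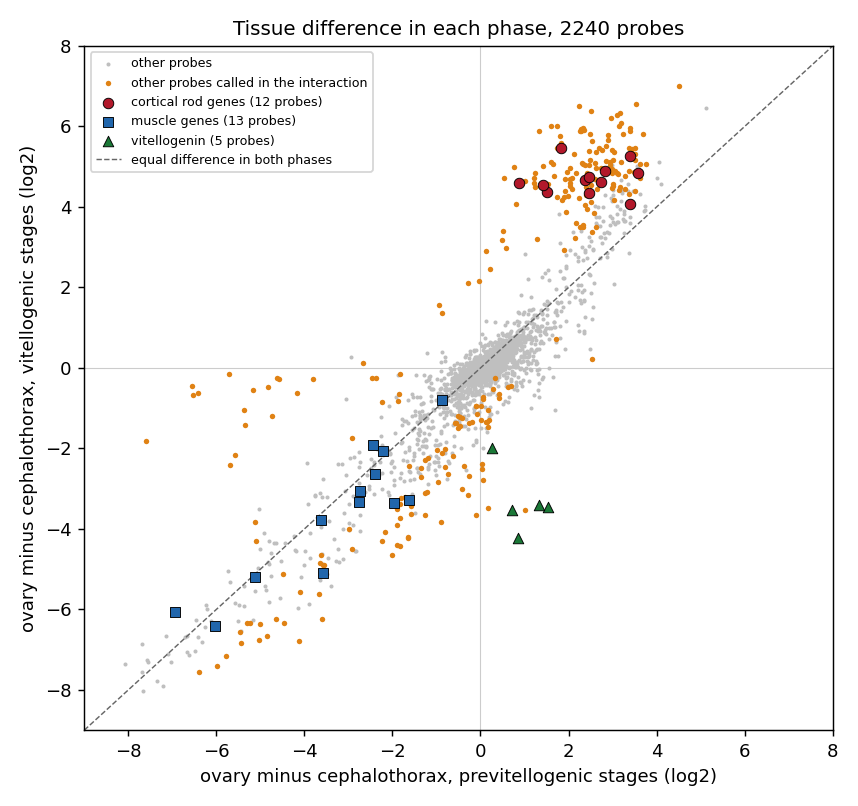
Log2 difference of ovary minus cephalothorax in the previtellogenic (horizontal) and vitellogenic stages (vertical) for 2240 probes. Cortical rod probes lie above the line of equal difference, with medians of 2.45 and 4.66, and the 5 vitellogenin probes lie below it with opposite signs. Muscle probes lie on both sides of it, and 1 of the 13 had a called interaction.

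The interaction probes fell into sets with different levels. In the first set, 140 probes were higher in ovary over all arrays and gained, and 96 of them were ovarian clones. Their median level per ovary array stayed between 12.71 and 13.01, while in cephalothorax it was 10.13, 10.22 and 10.93 on the previtellogenic arrays and 8.39, 7.67 and 7.51 on the vitellogenic ones. The probe with the smallest interaction p among ovarian clones was OV-N-S01-0383-W 472-506 (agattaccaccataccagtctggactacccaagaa), shown because it carries this pattern. In ovary it ran from 12.74 through 13.24 to 13.49, and in cephalothorax it read 12.22, 12.29 and 12.14 and then 8.97, 8.49 and 7.94. The previtellogenic cephalothorax arrays came close to the ovary and the vitellogenic ones did not, with an interaction of 3.64 ± 0.31 (SE, adjusted p = 6.27e-09). OV-N-S01-0937-W 440-473 was of the same kind, with an interaction of 2.56, and a probe of a SMART clone shares its bases, 1 of the 2 lying inside the other. The 10 cortical rod probes with a called interaction belong to the set too. Within cephalothorax the 12 cortical rod probes, markers of ovary, went from a median level of 9.85 to 11.49 to one of 7.90 to 8.65. For the 10 in the set this direction was largely fixed by how the set was chosen, so it is not separate evidence. The part of the cortical rod probes in these differences was not tested.

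In the second set, 81 probes were lower in ovary over all arrays and lost further, 44 of them hepatopancreas clones. Their ovary medians lay between 6.82 and 6.98, and their cephalothorax medians were 8.58, 8.27 and 8.39 and then 10.49, 10.30 and 10.54. HPA-N-S01-0018-LF 533-567 had the smallest interaction p of all probes. It ran from 6.49 through 6.56 to 6.93 in ovary, and cephalothorax read 7.54, 7.02 and 8.05 and then 10.49, 10.49 and 10.27. Every cephalothorax array was above every ovary array, and no ovary array was above the non-specific level. The interaction was -2.94 ± 0.20 (SE, adjusted p = 7.52e-11), and the difference over all arrays was at least 2.56-fold. HPA-N-S01-0603-LF 590-624 and HPA-N-S01-0307-LF 89-123 moved alike, with interactions of -2.54 and -1.96.

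A further set was lower in ovary mainly in the previtellogenic phase. It was chosen after seeing the phases, as probes at least 4-fold lower in the previtellogenic phase with a gain, and holds 23 probes of 14 targets, none with a gene name. Of these, 12 were SMART clones, 8 contigs and 3 hepatopancreas clones, and none was an ovarian clone. Their cephalothorax medians were 11.37, 11.93 and 12.32 on the previtellogenic arrays and 7.46, 7.56 and 8.89 on the vitellogenic ones, against 6.78 to 7.11 over the ovary arrays. Contig[0332] 147-181, named after its values were seen, read 15.10, 15.64 and 15.64 and then 8.78, 9.23 and 11.24 in cephalothorax. In ovary it ran from 7.48 through 7.85 to 8.44. Its difference was -7.59 ± 0.52 (SE) in the previtellogenic and -1.81 ± 0.52 in the vitellogenic phase. In the vitellogenic phase 7 of the 23 probes were still called lower. Among the vitellogenic arrays the elongated rod array had the highest median of the set.

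Muscle genes were lower in ovary. Of 13 probes, 12 were lower and 1 did not pass, against 23.8% lower over all probes, with a median log2 difference of -2.89. On 11 every ovary array lay below every cephalothorax array, against 13.9% of all probes. The median level of the list lay between 7.80 and 8.49 on the ovary arrays, between 11.65 and 12.22 on previtellogenic and between 12.02 and 12.65 on vitellogenic cephalothorax arrays. Only 1 of the 13 had a called interaction, arginine kinase P.mon41 305-339 with -1.65 (adjusted p = 0.0234).

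Myosin alkali light chain, a light chain of the muscle motor, was lowest in ovary relative to cephalothorax among the named genes. At probe 61-95 it ran from 6.32 through 6.55 to 6.78 in ovary, and no ovary array was above the non-specific level. Cephalothorax read 13.24, 13.72 and 13.27 and then 13.59, 10.53 and 13.83, so the round rod array lay well below the other 5 and still above all ovary arrays. The log2 difference was -6.50 ± 0.68 (SE, adjusted p = 1.29e-09), or at least 42.7-fold lower in ovary. Its second probe, 143-176, did not dip on the round rod array, which read 13.83, and differed by -6.22 ± 0.40.

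Muscle LIM protein 84B, a scaffold of muscle differentiation named for its Drosophila counterpart, was lower at 3 of 3 probes, by -5.17 to -2.66. At 233-267 no ovary array was above the non-specific level, with 6.55 through 6.94 to 7.23, against 11.69 to 12.91 in cephalothorax, which is at least 22.4-fold. Myosin fast heavy chain was lower at both probes, by -3.70 ± 0.28 at 161-195 (at least 7.55-fold) and by -3.04 ± 0.36 at 29-63. Arginine kinase, which buffers ATP in invertebrate muscle and is also made in other tissues, was above the non-specific level on every ovary array at its 6 probes. Target P.mon41 was lower at 3 of 3 probes, with -2.89 ± 0.28 at 5-39, where ovary ran from 11.13 through 11.61 to 12.32 and cephalothorax from 14.20 to 14.91. Target P.mon44 was lower at 2 of 3 probes, and the other, 169-203, differed by -0.83 ± 0.59 (SE, adjusted p = 0.235).

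Digestive and lysosomal enzymes did not move as one list. Of 22 probes 8 were higher (36.4%) and 8 lower (36.4%) in ovary, against 32.4% and 23.8% over all probes, with a median of -0.01, and 15 of the 22 were dim (below the non-specific level) on all 18 arrays. Among the lower calls, cathepsin D 417-451 was lost in 12 of the 18 fits that left out 1 array. Cathepsin C 1593-1627 was lost in 7 of them. The one large difference was cathepsin L, a papain-like protease that in shrimp is abundant in the hepatopancreas, at probe 566-599 of the P. monodon sequence. Ovary ran from 6.43 through 6.76 to 7.02, never above the non-specific level. Cephalothorax read 11.24, 10.10 and 8.51 and then 12.57, 10.22 and 11.72, all above every ovary array and widely spread. The difference was -4.02 ± 0.32 (SE, adjusted p = 2.34e-12), or at least 8.65-fold lower in ovary, and the interaction of -1.60 did not pass (adjusted p = 0.0556). The other 2 probes of this target were called in opposite directions, at -0.46 and 0.26, and were dim (below the non-specific level) on all 18 arrays, so the large difference rests on 1 probe. The second of these calls was lost without the 2 h cephalothorax array (adjusted p = 0.064), by cyclic loess (adjusted p = 0.0793) and when each array was scaled to one median (adjusted p = 0.0982). Cathepsin L of Metapenaeus ensis was lower at 4 of 5 probes and higher at 1, from -0.88 to 0.24. No probe on the array was named as trypsin, chymotrypsin, amylase or astacin, so the hepatopancreas markers other than cathepsin L were not measured by name.

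Hepatopancreas clones without a gene name held some of the largest measured differences. By the rule of at least 2 probes, all called lower and all cephalothorax arrays above the non-specific level, 89 unnamed targets qualified, and 97 qualified as higher in ovary. The 5 with the largest median were 4 hepatopancreas clones and Contig[0292]. HPA-N-S01-0577-LF 394-428, printed above, ran from 7.08 through 7.55 to 8.52 in ovary, and was above the non-specific level on 5 of 12 arrays. In cephalothorax it read 15.32, 15.24 and 15.32 and then 15.10, 15.49 and 14.77, high on all 6 arrays in both phases. The difference was -7.62 ± 0.21 (SE, adjusted p = 1.02e-23). HPA-N-S01-0698-LF 24-62 was at least 79.3-fold lower in ovary, and HPA-N-S01-0642-LF 24-62 and HPA-N-S01-0731-LF 6-40 differed by -7.55 and -7.85. The first of this pair was above the non-specific level on 3 and the second on 2 of the 12 ovary arrays, so most of their ovary values are dim. HPA-N-S01-0731-LF 6-40 also reached the scanner ceiling on 1 array, where its level is a lower limit. Contig[0292] 146-180 differed by -7.11 ± 0.21. None of these 5 probes had a called interaction. Other probes of 3 of these clones shared runs of at least 30 bases with each other. They were HPA-N-S01-0642-LF 128-164, HPA-N-S01-0698-LF 112-146 and HPA-N-S01-0731-LF 216-253, so these 3 clones are not separate evidence.

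**Figure D4:**
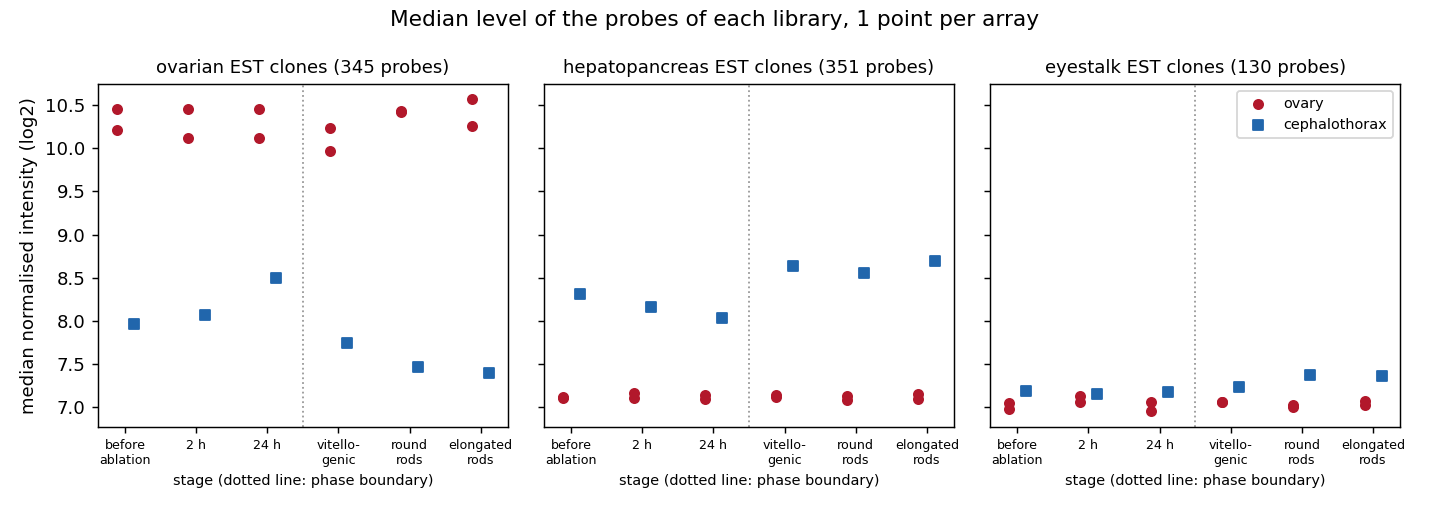
Median level (log2 normalised intensity) over the probes of the ovarian, hepatopancreas and eyestalk EST libraries on each array, by stage. Ovarian clones lay between 9.97 and 10.57 on ovary arrays, and in cephalothorax between 7.96 and 8.49 on previtellogenic and between 7.40 and 7.74 on vitellogenic arrays. Hepatopancreas clones lay there between 8.03 and 8.31 and between 8.55 and 8.69.

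Among unnamed targets higher in ovary, the 5 with the largest median were Contig[0334], Contig[0219] and the ovarian clones OV-N-S01-0183-W, OV-N-S01-0369-W and OV-N-S01-0819-W. Contig[0334] 188-221 (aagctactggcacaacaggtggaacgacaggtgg) is shown because its target had the largest median. It ran from 13.46 through 15.01 to 15.64 in ovary, and in cephalothorax it read 11.08, 10.32 and 10.27 and then 7.96, 7.55 and 7.30. Every cephalothorax array was below every ovary array, by a difference of 5.76 ± 0.42 (SE, adjusted p = 4.62e-13) over all arrays, 4.52 in the previtellogenic and 7.00 in the vitellogenic phase. OV-N-S01-0369-W 43-77 ran from 13.76 through 14.46 to 15.01 in ovary and from 7.19 to 11.49 in cephalothorax, and differed by 5.04 ± 0.38. Contig[0219] 598-632 differed by 4.43, OV-N-S01-0819-W 200-235 by 4.18 and OV-N-S01-0183-W 32-66 by 4.08. All 5 of these probes had a called gain in the vitellogenic phase, of 1.99 to 3.04.

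Transglutaminase, the enzyme of haemocytes that cross-links the clotting protein of crustacean blood, was lower in ovary at 3 of 3 probes, by -2.73 to -0.62. Over all probes 23.8% were called lower. At 337-371 ovary ran from 5.97 through 6.47 to 7.07, never above the non-specific level, and cephalothorax read 8.57, 9.11 and 9.28 and then 9.46, 10.38 and 8.68. Every cephalothorax array was above every ovary array, which is at least 3.10-fold. Only 193-227 had a called interaction, of -1.06 (adjusted p = 0.0113). It was the only target that the list of haemocyte and immune genes matched.

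Protein disulfide isomerase helps secreted proteins to fold in the endoplasmic reticulum. It was higher in ovary at 3 of 3 probes, by 1.32 to 1.95, against 32.4% called higher over all probes. At 314-348 ovary ran from 8.20 through 8.66 to 9.92, and the cephalothorax arrays read 6.62, 6.36 and 6.89 and then 6.85, 7.21 and 6.96, none above the non-specific level. The groups did not overlap, and the difference was 1.95 ± 0.17 (SE, adjusted p = 2.05e-11), or at least 2.47-fold. In the previtellogenic phase all 3 probes were called and in the vitellogenic phase 2.

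Nuclear receptor E75, which answers to moulting hormone, was lower in ovary at 3 of 5 probes. At 3435-3469 ovary ran from 6.51 through 6.86 to 7.30, and cephalothorax read 9.27, 8.56 and 9.40 and then 8.38, 9.21 and 8.90. No ovary array was above the non-specific level and the groups did not overlap, so ovary was at least 2.52-fold lower. In the same list, retinoid X receptor, the partner of nuclear hormone receptors, was higher at 2 of 5 probes, by at most 0.48. Of the 15 probes of this list 2 were higher (13.3%) and 3 lower (20%), against 32.4% and 23.8% over all probes. On all 18 arrays 7 of the 15 were dim (below the non-specific level). Farnesoic acid O-methyltransferase, which makes methyl farnesoate, passed at 0 of 5 probes by limma, with differences of -0.32 to 0.10, at 0 with an unadjusted p under 0.05 and at 1 by a plain t-test per probe. Of these 5 probes, 4 were dim (below the non-specific level) on all 18 arrays.

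Phenylalanine/tryptophan hydroxylase, an enzyme of aromatic amino acid breakdown and amine synthesis, was lower in ovary at 3 of 3 probes, by -1.59 to -1.08. At 223-257 ovary ran from 7.50 through 7.74 to 8.57, and cephalothorax read 8.72, 8.36 and 8.29 and then 9.86, 10.07 and 9.96. The vitellogenic arrays were all above the ovary range and 2 of the 3 previtellogenic ones were within it, with an interaction of -1.58 (adjusted p = 0.0403). Over the list of vision and neurotransmission targets it belongs to, with 22 probes, 3 were higher (13.6%) and 6 lower (27.3%), against 32.4% and 23.8% over all probes. Of the 22, 10 were dim (below the non-specific level) on all 18 arrays, and the 9 arrestin probes had 1 call, of 0.26. Of 5 probes of the 5-HT1 receptor 1 was higher, 1 lower and 3 did not pass, with a median of 0.12. The higher one, 2160-2195, differed by 1.27 ± 0.32 (SE) and the lower one, 1713-1747, by -0.38. At 2160-2195 the round rod array of cephalothorax read 8.91 and the other 5 read less, down to 7.48.

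Sinus gland neuropeptides, a list with hyperglycemic, moult-inhibiting, gonad-inhibiting and pigment dispersing hormones, were mostly dim in both tissues. Of 88 probes 22 were higher (25%) and 5 lower (5.68%) in ovary, both below the shares of 32.4% and 23.8% over all probes. None was higher by 2-fold or more, and 50 were dim (below the non-specific level) on all 18 arrays. The one difference of 2-fold or more was PmSGP-III 80-114, lower in ovary by -1.11 ± 0.41 (SE, adjusted p = 0.0236). Its call was lost without the 2 h cephalothorax array, with a difference of -0.94 (adjusted p = 0.0754). Another of the lower calls, PDH 1 (pigment dispersing hormone) 290-328, was lost in 14 of the 18 fits that left out 1 array. The PDH 1 call was also lost without background correction and with slide or stage as a block. That of PDH 3 250-284 was lost in 1 of the 18 fits.

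Of 13 probes of housekeeping genes 1 was called, against 56.2% of all probes. It was 1 of 6 ribosomal protein probes, ribosomal protein L18 57-91 at -0.88 ± 0.37 (SE, adjusted p = 0.0421), and its call was lost in 9 of the 18 fits that left out 1 array. By limma at adjusted p under 0.05, 0 of 4 histone H1 and ubiquitin probes were called, with differences of -0.62 to 0.28. Of 3 probes of NADH:ubiquinone oxidoreductase, a mitochondrial complex, 0 were called, with -0.15 to 0.42. At an unadjusted p under 0.05 both counts were again 0, and by a plain t-test per probe each was 1. A missed threshold with 6 cephalothorax arrays does not show equal levels.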

How the data were processed

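Per the labels' protocols, each array received Cy5-labelled RNA of 1 sample after amplification by transcription in vitro. The deposited scanner output gives the foreground mean and median intensity of each spot (linear, as the file headers show), with no background column and a ceiling of 65535. The sources used here do not name the image software. The deposited value table held 2239 probes, and its 85082 values equalled the mean intensity within 0.01. Files name 249 of the 2240 probes through 70 targets, with names that can be old.

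Intensities of the 30 wild arrays (12 ovary, 12 eyestalk, 6 cephalothorax) were background-corrected (normexp, offset 50), converted to log2 and quantile-normalised (limma 3.58.1, R 4.3.3). A fit with 1 mean per tissue gave the tissue difference, and a fit with 6 means (tissue by phase) gave the differences by phase and the interaction. Each SE and p-value rests on a spread shared by all 30 wild arrays, eyestalk included. Where the 6 cephalothorax arrays vary more than the others, their spread can be understated. All tests were two-sided, with Benjamini-Hochberg adjustment over 2240 probes and a threshold of 0.05, and each difference is ovary minus cephalothorax. The code was tested on simulated data. Single values per array were compared by exact permutation (scipy 1.17.1). The number of arrays limits the precision.

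The comparison, the gene lists and the genes named were chosen with earlier results of these data known. Lists were word patterns on the names in the files. The genes named were, for each list and direction, the most different called probe of up to 4 targets, the 5 unnamed targets with the largest median in each direction, and the 5 probes with the smallest interaction p. All probes of the cortical rod, vitellogenin, cathepsin L, transglutaminase, myosin and arginine kinase targets could be named too. The non-specific level rests on 24 vertebrate-derived probes and was chosen after seeing the data, because no control spots are marked. Alternatives were other scalings, background steps, probe filters, arrays, blocks and tests.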

Additional observations from a re-analysis of the deposited data

Results flagged for a closer look

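In cephalothorax 2 of 68 values tested had 1 array far from the other 5, about what chance gives, since it marks about 1 group in 20. For myosin alkali light chain 61-95 the round rod array stood apart by 0.819 of the whole range, and for 5-HT1 receptor 2160-2195 the same array stood apart by 0.631 of the range.

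The tissue difference differed between the phases at 269 probes. Among the probes named, 25 are listed here, and others with a called interaction are not. Those left out include probes of arginine kinase P.mon41, transglutaminase and phenylalanine/tryptophan hydroxylase. Also left out are Plate-C-C11-5-SMART 52-87, HPA-N-S01-0214-LF 316-352, D-B3-5-SMART 11-44 and Contig[0332] 147-181. The 25 had these differences of the vitellogenic from the previtellogenic phase (log2). Thrombospondin had 3.65 (1018-1051), 1.89 (1114-1150), 2.08 (1178-1211), 1.88 (1530-1564) and 2.29 (1758-1792). Ovarian peritrophin 1 had 2.86 (484-517), 3.12 (664-697), 2.30 (830-863) and 1.87 (8-41), and ovarian peritrophin 2 had 3.71 (484-518). Vitellogenin had -5.08 (6949-6983), -4.99 (7005-7039), -4.73 (7245-7279), -2.26 (7311-7345) and -4.26 (7519-7553). Of the unnamed targets, Contig[0219] 598-632 had 1.99, Contig[0334] 188-221 had 2.49 and OV-N-S01-0183-W 32-66 had 2.15. Among the other ovarian clones, OV-N-S01-0369-W 43-77 had 3.04, OV-N-S01-0819-W 200-235 had 2.68, OV-N-S01-0383-W 472-506 had 3.64 and OV-N-S01-0937-W 440-473 had 2.56. Of the hepatopancreas clones, HPA-N-S01-0018-LF 533-567 had -2.94, HPA-N-S01-0603-LF 590-624 had -2.54 and HPA-N-S01-0307-LF 89-123 had -1.96.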

How the results depend on the processing

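Of 1259 probes called between the tissues, the count ran from 1175 to 1247 without 1 array and from 867 (captive ovary arrays) to 1445 (plain t-test per probe) over the other alternatives, with slide as a random block at 1124. Of 695 probes at 2-fold or more, leaving out 1 array gave 682 to 710, a fold limit of 1.5 gave 918 and a limit of 4 gave 463. The 269 interaction probes became 226 to 279 without 1 array, 220 by cyclic loess and 329 when 18 arrays were fitted alone. Leaving out 1 slide, an alternative chosen after seeing the data, gave 898 to 1212 calls.

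No paired analysis was possible because the cephalothorax arrays carry no replicate number in the labels. The tissues share stages, and a block for stage gave 1244 calls and averaging the arrays of a stage 1367.

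With the 4 captive ovary arrays some probes turned sign. Cathepsin C 1593-1627 turned to 0.52, PDH 3 250-284 to 0.81 and PDH 1 290-328 to 1.23. Phospholipase C 289-323 turned to -0.0757, arrestin P.mon10 29-63 to -0.0337, cathepsin L 227-260 to -0.0665 and the vitellogenin receptor 329-363 to -0.0477. Only PDH 1 290-328 was called with its turned sign (adjusted p = 0.0381), and the others did not pass. In the previtellogenic stages alone vitellogenin turned to 0.85 (6949-6983), 1.53 (7005-7039), 1.32 (7245-7279), 0.27 (7311-7345) and 0.73 (7519-7553), and only 7005-7039 was called there, at an adjusted p of 0.0371. The cause of the captive changes was not tested. Of 61 named probes called, 8 lost the call without some 1 array. Dim probes and the 3 probes at the scanner ceiling limit what these arrays measure.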

Other observations

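Genes outside the lists gave a few further differences, where 32.4% of all probes were called higher and 23.8% lower. Dynactin, which links dynein to its cargo, was higher in ovary at 2 of 3 probes, with log2 differences of 0.13 to 1.13. The broad complex sequence of the mosquito Aedes aegypti, a transcription factor of the ecdysone response in insects, was lower at 2 of 3 probes. Its differences ran from -1.47 through a median of -0.43 to 0.25, and 2 of its 3 probes were below the non-specific level on all 18 arrays. Clathrin heavy chain 2, a coat protein of endocytic vesicles, was higher at 1 of 3 probes, with 0.73 the largest difference. Ornithine decarboxylase 2 of Drosophila, an enzyme of polyamine synthesis, was called higher at 2 and lower at 1 of 3 probes, from -0.28 to 0.26, and all 3 were below the non-specific level on all 18 arrays.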
